A study of Mus musculus with 3 samples.

Results

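The core circadian clock and its nearest outputs were followed through 10 genes, taken by name from the 22954 genes of the lung single-cell libraries: Nr1d1, Nr1d2, Dbp, Tef, Per1, Per2, Per3, Ciart, Arntl and Npas2. All 10 were listed in each of the 3 libraries. They were described in every cell class that a marker gate separated, gene by gene, and by the phase in which they are known to cycle, with 8 genes in the phase of Nr1d1 and 2, Arntl and Npas2, in the opposite phase.

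The mammalian clock is a feedback loop of transcription that runs in nearly every cell and in the lung gates, among others, inflammatory and secretory programmes. Arntl (BMAL1) pairs with CLOCK or its paralogue NPAS2 and switches on genes that carry an E-box, among them the Period genes, Nr1d1, Nr1d2, Dbp, Tef and Ciart, whose RNAs therefore peak in a common part of the day. PER proteins and CIART (CHRONO) hold back that activation, NR1D1 and NR1D2 (REV-ERB alpha and beta) repress Arntl and Npas2 through response elements that they share with ROR receptors, and DBP and TEF act through D-boxes. Single snapshots of RNA show a level and not a rhythm.

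The libraries came from the lungs of 3 wild-type (WT) female C57BL6/J mice, 1 mouse per library, taken 5 months after 13 Gy to the bilateral thorax from an ElectronFLASH electron source. CONV was given at a conventional dose rate and FLASH at an ultra-high one. The CONV AsiDNA mouse also received conventional irradiation, after intraperitoneal AsiDNA, a cholesterol-coupled oligonucleotide that mimics a DNA double-strand break, at 100 mg/kg on consecutive days and at 200 mg/kg on the day of irradiation. All 3 mice were irradiated, libraries of non-irradiated mice were not analysed here, and with 1 mouse per condition the treatment, the mouse and the hour at which the lung was taken cannot be told apart, with the hour itself not given in the sources used here. No p-value is given, and intervals cover the counting of cells in these libraries only.

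The 19622 cells had a median of 1235.5, 1339 and 1315 genes above 0 in CONV, CONV AsiDNA and FLASH, and summed values of 23908890, 26417388 and 23383510. Pairs of libraries shared 16, 9 and 17 cell barcodes. Cells with fewer than 200 genes above 0 were left out (3 cells), and 18003 of the 19619 kept cells (91.8%) had at least 4 markers above 0 of exactly 1 of 18 cell classes. The 10 leading genes of each class held no marker of another class, but the gate used the same markers, so this is no separate check. Of the gated cells, 944 stood at the minimum of 4 markers. In all, 14 classes had at least 50 cells in every library: type 2 and type 1 alveolar epithelial (AT2, AT1), ciliated, club, endothelial (EC), fibroblast, alveolar and interstitial macrophage (AM, IM), monocyte, dendritic (DC), neutrophil, B, T and NK-like cells. A level below is the summed value of a gene in a class per 1000000 of the summed value of all genes there, written ppm, and a share is the percentage of cells in which the gene was above 0. Where 3 values stand in a row without names, they are those of CONV, CONV AsiDNA and FLASH in this order. Levels were compared between classes and libraries within a gene, never between genes, and every order of classes is over the 14 classes compared.

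In the deposited values the totals of single cells lay close together, and many genes were at exactly 0 throughout whole classes. How the values had been adjusted was not tested, and a gene listed at 0 was given no limit. Where 1 library was listed at 0, the ratio on the scale with 10 ppm added was kept in the counts but is no fold.

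On GRCm38 the member genes lie apart from each other except for a shared chromosome: Nr1d1 (98767932 to 98775333, minus strand) and Per1 (69095217 to 69109960, plus strand) are on chromosome 11, Dbp (45705088 to 45710203) and Arntl (113207465 to 113314126) on the plus strand of chromosome 7, and Per2 (91415982 to 91459324, minus strand) and Npas2 (39193731 to 39363236, plus strand) on chromosome 1. Nr1d2 is on chromosome 14 (18204054 to 18239127, minus strand), Tef on chromosome 15 (81802421 to 81826863, plus strand), Per3 on chromosome 4 (151003652 to 151044665, minus strand) and Ciart on chromosome 3 (95878503 to 95882251, minus strand). Nr1d1 shares 1075 bases of its annotated span with Thra, a thyroid hormone receptor gene on the other strand, and Dbp shares 737 bases with Sphk2 on the other strand. Per3 lies wholly within an annotated span of Camta1 on the same strand. Ciart, Arntl and Tef overlap antisense genes and Npas2 a pseudogene on either strand, and the strand setting of the counting was not given in the sources used here, so values of these genes may hold reads of their overlapping partners.

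Promoter windows of 300 bases, from 250 before the start site to 50 from it on, were read from RefSeq (GRCm38.p6) for 9 of the 10 genes, in 12 windows. Per2 had none. The windows were searched on both strands for the E-box CACGTG and its variant CACGTT, the D-box letters TTATGTAA, TTACGTAA and TTATGCAA, the response elements TAGGTCA and TGGGTCA of the NR1D and ROR receptors, the CRE TGACGTCA and its shorter form TGACGNNA, and the glucocorticoid response element in its full palindromic form. The short form of the CRE includes the full one, and no other motifs overlapped in the members' windows. CACGTG was found in 1 of 2 windows of Per1 and in those of Tef (both windows) and Ciart, where it occurred 3 times, and in 7.15% of all 32851 windows of this length. TTATGTAA occurred in the window of Per3 at 2 places (0.938% of all windows), TTATGCAA in the same window of Per1 (0.743%), CACGTT in that of Nr1d1 (4.68%), and TAGGTCA in 1 of 2 windows of Arntl (2.61%). TTACGTAA (0.119% of all windows) and TGGGTCA (3.98%) were in none of them. Neither form of the CRE (1.79% and 6.61% of all windows) nor the glucocorticoid element (0.00913%) was in any of the members' windows. The letters describe these windows and are not evidence of binding. Those below are shown because Per1 and Tef were the members most often highest in 1 library, Ciart had the window with 3 E-boxes, and Per3 and Arntl carry the D-box and receptor letters. They run 5′ to 3′ along the gene, with the motif letters in capitals.
Per1 (chr11:69098699-69098998, plus strand): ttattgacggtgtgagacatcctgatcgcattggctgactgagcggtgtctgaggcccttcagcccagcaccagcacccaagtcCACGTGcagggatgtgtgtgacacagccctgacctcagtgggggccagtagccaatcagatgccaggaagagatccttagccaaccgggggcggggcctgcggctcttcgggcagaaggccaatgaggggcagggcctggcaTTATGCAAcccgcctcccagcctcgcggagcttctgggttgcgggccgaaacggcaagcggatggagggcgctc
Tef (chr15:81802423-81802722, plus strand): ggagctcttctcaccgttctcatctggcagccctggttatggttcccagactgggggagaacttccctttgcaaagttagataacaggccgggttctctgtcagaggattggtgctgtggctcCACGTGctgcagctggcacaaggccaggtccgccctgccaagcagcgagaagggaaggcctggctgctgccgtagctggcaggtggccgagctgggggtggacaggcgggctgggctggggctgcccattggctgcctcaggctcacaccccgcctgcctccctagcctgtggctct
Ciart (chr3:95882179-95882478, minus strand): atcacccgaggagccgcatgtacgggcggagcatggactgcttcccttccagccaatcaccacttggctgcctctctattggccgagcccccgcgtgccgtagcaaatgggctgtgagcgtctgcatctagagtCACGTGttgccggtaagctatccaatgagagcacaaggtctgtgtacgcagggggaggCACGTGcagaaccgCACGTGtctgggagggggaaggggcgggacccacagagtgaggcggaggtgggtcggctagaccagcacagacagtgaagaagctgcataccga
Per3 (chr4:151044616-151044915, minus strand): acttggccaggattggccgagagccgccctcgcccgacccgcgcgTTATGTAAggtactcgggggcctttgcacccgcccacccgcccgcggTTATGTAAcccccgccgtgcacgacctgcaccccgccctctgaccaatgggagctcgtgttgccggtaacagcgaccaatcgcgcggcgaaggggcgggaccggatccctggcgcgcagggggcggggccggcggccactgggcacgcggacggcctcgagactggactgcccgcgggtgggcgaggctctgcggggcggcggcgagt
Arntl (chr7:113207261-113207560, plus strand): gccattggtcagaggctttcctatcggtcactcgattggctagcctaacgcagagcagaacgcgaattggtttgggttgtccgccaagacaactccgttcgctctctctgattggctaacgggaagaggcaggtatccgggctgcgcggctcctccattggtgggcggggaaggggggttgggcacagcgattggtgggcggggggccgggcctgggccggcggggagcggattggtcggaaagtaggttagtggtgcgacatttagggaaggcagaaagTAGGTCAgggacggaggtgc

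The members were spread unevenly over the lung. Of the 140 combinations of a gene and a class, 82 were above 0 in every library, 30 were listed at 0 in all 3, and 28 were mixed. AT2 and ciliated-like cells had all 10 members above 0 in every library, EC and fibroblast-like cells 9. At the other end, DC-like cells had 1 member above 0 in every library (Per1) and 8 listed at 0 in all 3, and neutrophil-like cells had 2 (Per1 and Per2) and 6. The shares of all genes above 0 anywhere that were listed at 0 in all 3 libraries of those classes were 40.7% and 53.5%, against 36.6% in AT2-like and 25.1% in ciliated-like cells. Per1 was the one member above 0 in every library of 13 classes, the exception being club-like cells of FLASH, where it was listed at 0.

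**Figure D1:**
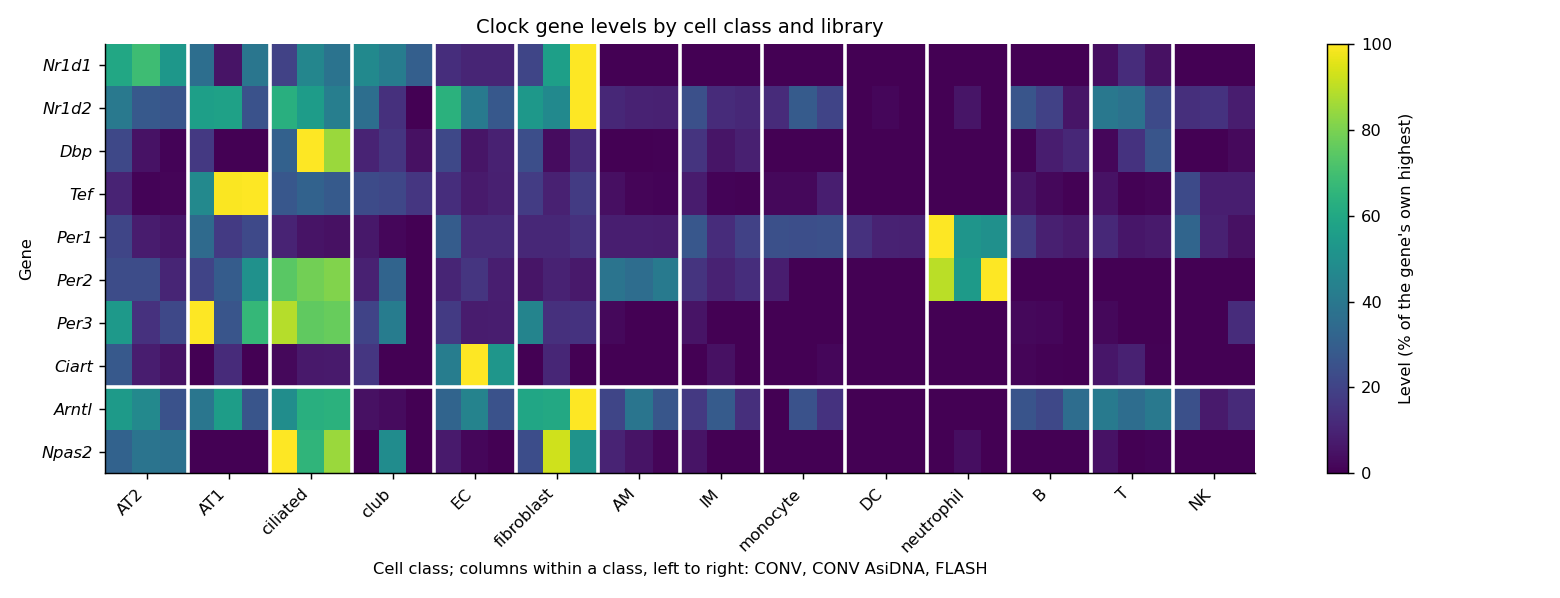
Level of each clock gene (rows) in each cell class, with the CONV, CONV AsiDNA and FLASH libraries as columns from left to right within a class, as a percentage of the gene's own highest level. The 8 genes above the horizontal white line are those of the Nr1d1 phase and the 2 below it those of the opposite phase, and DC-like cells are near 0 in all rows but that of Per1.

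Cells with at least 3 members above 0 made up 24.2%, 6.57% and 5.01% of AT2-like, 23.8%, 29.5% and 21.3% of ciliated-like and 9.68%, 7.96% and 18.6% of fibroblast-like cells. A member was above 0 on average 1.67, 1.03 and 0.838 times per AT2-like cell of CONV, CONV AsiDNA and FLASH, and 17.3%, 32.1% and 43.1% of those cells had no member above 0. Ciliated-like cells had 1.65, 1.86 and 1.53 members above 0 per cell. In DC-like cells the means were 0.205, 0.168 and 0.148, and 79.5%, 83.2% and 85.2% of the cells had none.

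Nr1d1, the nuclear receptor that represses Arntl, was present in structural cells and in T-like cells and was listed at 0 in all libraries of 7 classes (AM, IM, monocyte, DC, neutrophil, B and NK). Its level in fibroblast-like cells was 37.0 ppm (CONV), 99.6 ppm (CONV AsiDNA) and 177 ppm (FLASH). Nr1d1 was above 0 in 9.68% (95% interval 3.63 to 19.9) of CONV cells, 29.2% (95% interval 21.0 to 38.5) of CONV AsiDNA cells and 44.9% (95% interval 37.2 to 52.8) of FLASH cells, that is in 6 of 62, 33 of 113 and 75 of 167 cells. The CONV library was the lowest, and its interval did not overlap those of CONV AsiDNA or FLASH. After every cell was thinned to a summed value of 1000, the shares were 6.45%, 8.85% and 17.4% in the same order, and the CONV interval (1.79 to 15.7) overlapped both others (4.33 to 15.7 and 11.9 to 24.0). With the log2 ratio computed, here and below, after 10 ppm were added to each level, CONV stood at -1.22 against CONV AsiDNA and at -1.99 against FLASH.

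The order of the libraries was the same in both sets of fibroblast-like cells that Col13a1, a marker of alveolar fibroblasts, separated. Where Col13a1 was above 0, the Nr1d1 level was 13.5, 93.0 and 194 ppm in CONV, CONV AsiDNA and FLASH (34, 72 and 119 cells), and where it was at 0 it was 65.6, 112 and 132 ppm (28, 41 and 48 cells). The shares were 5.88%, 25.0% and 47.9% and 14.3%, 36.6% and 37.5%. Between CONV and FLASH the gap was wider where Col13a1 was above 0, on few cells. Thra, which overlaps Nr1d1 on the other strand, had 159, 147 and 174 ppm in the 3 libraries of fibroblast-like cells, so it did not have the order of Nr1d1.

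In the other classes compared the libraries took other orders. In ciliated-like cells Nr1d1 stood at 34.6 ppm (CONV), 81.0 ppm (CONV AsiDNA) and 67.7 ppm (FLASH), and the share of cells was 13.0% (95% interval 9.23 to 17.6) of CONV cells, 29.8% (95% interval 25.0 to 35.0) of CONV AsiDNA cells and 21.3% (95% interval 16.6 to 26.8) of FLASH cells. CONV was again the lowest, with an interval apart from that of CONV AsiDNA and overlapping that of FLASH. AT2-like cells, the surfactant-producing cells of the alveolus, had 106, 122 and 94.0 ppm and shares of 38.1%, 40.1% and 34.2% with overlapping intervals. AT1-like cells, the flat cells of gas exchange, had 63.8, 9.55 and 69.3 ppm, low in CONV AsiDNA, where 2 of 66 cells were above 0 and the interval of 0.369 to 10.5% overlapped both others.

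Club-like cells had an Nr1d1 level of 84.4, 74.3 and 53.5 ppm and EC-like cells of 23.0, 18.3 and 18.4 ppm. T-like cells had 6.75, 22.3 and 7.70 ppm, and in them Nr1d1 was above 0 in 1.97% (95% interval 1.30 to 2.85) of CONV cells, 6.78% (95% interval 5.28 to 8.54) of CONV AsiDNA cells and 1.87% (95% interval 1.18 to 2.82) of FLASH cells, with the CONV AsiDNA interval above both others. By the mean of the 3 libraries, over the 14 classes compared, AT2-like (107) and fibroblast-like (105) cells led, followed by club (70.7), ciliated (61.1), AT1 (47.5), EC (19.9) and T-like cells (12.2). The ranges over libraries overlapped between neighbours in this order, and the other 7 classes were listed at 0, for which no limit was given. Within EC-like cells, those with markers of large vessels had 14.6, 34.8 and 90.7 ppm (35, 38 and 33 cells), in the order that fibroblast-like cells had, against 27.0, 15.1 and 20.5 ppm in general capillary cells and 30.3, 13.9 and 5.27 ppm in aerocytes, the thin capillary cells of gas exchange.

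Nr1d2, the paralogue of Nr1d1 with the same target elements, reached all 14 classes, with 11 above 0 in every library, and its levels lay closer together. It was highest by the library mean in fibroblast-like cells, at 44.4 ppm (CONV), 39.4 ppm (CONV AsiDNA) and 83.4 ppm (FLASH), followed by ciliated-like cells with 52.7, 46.1 and 35.7 ppm and AT1-like cells with 47.0, 47.8 and 21.1 ppm. Of 10 classes compared, CONV was the highest library in 7 and FLASH the lowest in 8, and fibroblast-like cells were the one class with FLASH highest, where the shares of 17.7%, 13.3% and 28.1% were apart between CONV AsiDNA and FLASH. In EC-like cells Nr1d2 was above 0 in 16.8% (95% interval 13.1 to 21.0) of CONV cells, 12.1% (95% interval 9.19 to 15.4) of CONV AsiDNA cells and 7.71% (95% interval 5.49 to 10.5) of FLASH cells, and the CONV interval did not overlap that of FLASH. In B-like cells the shares were 5.48%, 4.06% and 1.39%, and there the log2 ratio of CONV over FLASH was 1.11. Both Nr1d1 and Nr1d2 were thus highest in FLASH in fibroblast-like cells, and the log2 ratio of CONV over FLASH was -0.78 for Nr1d2.

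**Figure D2:**
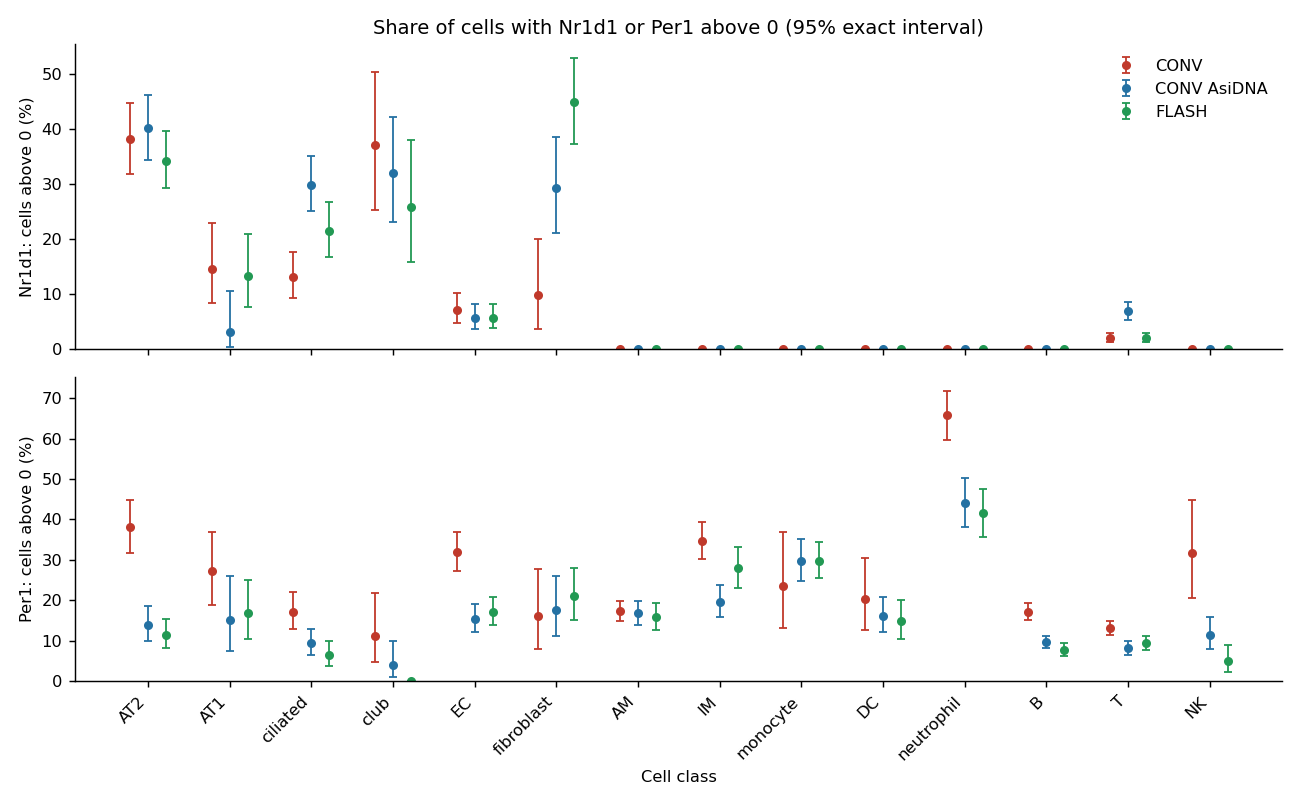
Share of cells with Nr1d1 (top) or Per1 (bottom) above 0, in percent, by cell class and library, with exact 95% intervals over cells, and shares of 0 carry no interval. Nr1d1 is lowest in CONV in fibroblast and ciliated-like cells, whereas Per1 is highest in CONV in AT2, EC, neutrophil, B and NK-like cells.

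Per1, a repressor of the BMAL1 complex that also responds directly to signals such as glucocorticoids and cAMP, was the most widely measured member. Its level in AT2-like cells was 89.1 ppm (CONV), 33.2 ppm (CONV AsiDNA) and 25.8 ppm (FLASH), and it was above 0 in 38.1% (95% interval 31.8 to 44.7) of CONV cells, 13.9% (95% interval 10.0 to 18.5) of CONV AsiDNA cells and 11.5% (95% interval 8.31 to 15.4) of FLASH cells. In EC-like cells it was 125 ppm (CONV), 51.9 ppm (CONV AsiDNA) and 51.9 ppm (FLASH), in 32.0% (95% interval 27.2 to 37.0) of CONV cells, 15.4% (95% interval 12.2 to 19.1) of CONV AsiDNA cells and 17.1% (95% interval 13.8 to 20.8) of FLASH cells. In NK-like cells it was 139 ppm (CONV), 38.3 ppm (CONV AsiDNA) and 19.6 ppm (FLASH), with shares of 31.7%, 11.5% and 4.95% of 63, 262 and 202 cells. CONV was the highest library in all 3 classes, with an interval apart from both others, and after thinning to 1000 the order stayed but the intervals overlapped in both comparisons in AT2-like cells and against CONV AsiDNA in NK-like cells. The log2 ratios over CONV AsiDNA were 1.20, 1.12 and 1.63. Over FLASH they were 1.47, 1.12 and 2.33.

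Neutrophil-like cells had the highest Per1 levels of the 14 classes compared, 426 ppm (CONV), 223 ppm (CONV AsiDNA) and 213 ppm (FLASH), and these did not overlap with those of the next of them. The shares were 65.9% (95% interval 59.6 to 71.7) of CONV cells, 44.1% (95% interval 38.2 to 50.1) of CONV AsiDNA cells and 41.5% (95% interval 35.6 to 47.6) of FLASH cells, with CONV again above both others without overlap, and the log2 ratios of 0.91 and 0.97 were just short of 1. B-like cells had 72.6, 36.7 and 30.5 ppm and shares of 17.2%, 9.62% and 7.81%. T-like cells had 49.1, 26.4 and 30.1 ppm and shares of 13.1%, 8.11% and 9.37%. IM-like cells had 116, 54.1 and 82.2 ppm, and ciliated-like cells 42.0, 22.4 and 18.3 ppm.

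CONV had the highest Per1 level in 11 of the 13 classes compared, where the CONV library was highest in 35.7% of the combinations of a gene and a class over all genes compared. The margin was small in monocyte-like cells (104, 101 and 103 ppm), whose shares of 23.6%, 29.8% and 29.7% had CONV lowest with overlapping intervals. The 2 classes with another order were fibroblast-like cells, at 48.1, 47.7 and 60.0 ppm, and AM-like cells, at 35.6, 36.0 and 34.1 ppm, in which the 3 libraries lay close together. In AM-like cells the log2 ratio of Per1 was -0.01 against CONV AsiDNA and 0.05 against FLASH, beside medians of -0.29 and -0.25 over genes above 0 in both libraries, so that relative to the median gene CONV was the higher library there too, whereas in monocyte-like cells the ratio over FLASH was 0.0065 beside a median of 0.033 and CONV was not. Between CONV AsiDNA and FLASH the log2 ratio of Per1 was at most 0.71 in size over the 13 classes, in NK-like cells.

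Beside the Per1 result, the 3 endothelial subsets kept its direction. Per1 stood at 171, 73.6 and 71.8 ppm in general capillary, 90.8, 34.6 and 47.5 ppm in aerocyte and 109, 34.8 and 30.2 ppm in large vessel EC-like cells. The makeup of EC-like cells differed between libraries, with Car4, a marker of aerocytes, above 0 in 28.2%, 48.0% and 52.5% and Gpihbp1, a marker of general capillary cells, in 68.0%, 51.3% and 55.0% of them. The part of the makeup in the result for all EC-like cells was not tested beyond these subset values.

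Per2, which acts beside Per1, was measured in fewer classes and was listed at 0 in every B, T, NK and DC-like library. It was highest in neutrophil-like cells, at 58.5 ppm (CONV), 35.7 ppm (CONV AsiDNA) and 65.3 ppm (FLASH), and in ciliated-like cells, at 48.6 ppm (CONV), 51.4 ppm (CONV AsiDNA) and 53.1 ppm (FLASH). The ranges of the 2 classes overlapped, and ciliated-like cells lay above AM-like cells, at 25.2, 23.3 and 26.9 ppm, in every library. Per2 passed 2-fold between no pair of libraries in the 6 classes compared. In ciliated-like cells its shares were 20.1% (95% interval 15.5 to 25.4) of CONV cells, 20.2% (95% interval 16.1 to 24.8) of CONV AsiDNA cells and 18.4% (95% interval 13.9 to 23.5) of FLASH cells, 3 intervals that overlapped.

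Per3, the third Period gene and a weak repressor, was mainly epithelial in these libraries. It was highest in ciliated-like cells, at 80.7 ppm (CONV), 68.5 ppm (CONV AsiDNA) and 69.5 ppm (FLASH), and AT1-like cells, at 90.7 ppm (CONV), 23.9 ppm (CONV AsiDNA) and 60.2 ppm (FLASH). In AT2-like cells it was 49.0 ppm (CONV), 12.8 ppm (CONV AsiDNA) and 19.7 ppm (FLASH), above 0 in 22.5% (95% interval 17.3 to 28.4) of CONV cells, 5.84% (95% interval 3.37 to 9.31) of CONV AsiDNA cells and 8.26% (95% interval 5.56 to 11.7) of FLASH cells. CONV stood above both others there, and the log2 ratio was 1.37 over CONV AsiDNA and 0.99 over FLASH. CONV was the highest library in 5 of the 6 classes compared. In fibroblast-like cells Per3 was 40.7, 12.5 and 13.2 ppm, from 8, 6 and 8 cells above 0, with overlapping shares. CONV was thus highest for Per3 and lowest for Nr1d1 in the same cells, but Per3 reached the minimum sum for a comparison there only with CONV. In club-like cells Per3 was above 0 in 6 of 62 and 13 of 100 cells of CONV and CONV AsiDNA and was listed at 0 in the 66 cells of FLASH. It reached the minimum sum there only with CONV AsiDNA.

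Dbp and Tef encode activators that bind D-boxes. Dbp was concentrated in ciliated-like cells, at 18.9 ppm (CONV), 61.3 ppm (CONV AsiDNA) and 52.1 ppm (FLASH), above 0 in 7.81% (95% interval 4.90 to 11.7) of CONV cells, 22.2% (95% interval 17.9 to 27.0) of CONV AsiDNA cells and 15.7% (95% interval 11.6 to 20.7) of FLASH cells. CONV was the lowest library, the same order that Nr1d1 had in these cells, and its interval was apart from that of CONV AsiDNA. The log2 ratios were -1.30 and -1.10. None of the other classes compared overlapped with ciliated-like cells in Dbp level. In T-like cells Dbp was 1.13, 8.91 and 16.1 ppm, above 0 in 5, 24 and 58 cells, with CONV lowest and a log2 ratio of -1.23 over FLASH. B-like cells had the same order, at 0.260, 4.80 and 6.77 ppm from 1, 22 and 24 cells. In AT2-like cells Dbp was at the minimum for a comparison, 13.4, 3.02 and 0.614 ppm from 15, 4 and 1 cells with CONV highest, and EC-like cells also had CONV highest, at 13.3, 3.54 and 5.58 ppm. In both, as in IM-like cells, Dbp reached that minimum only with CONV.

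Of the 14 classes compared, Tef was highest in AT1-like cells, at 118 ppm (CONV), 248 ppm (CONV AsiDNA) and 249.9 ppm (FLASH), where CONV was the lowest library and the log2 ratios were -1.02 and -1.03. The shares there, 23.3% (95% interval 15.5 to 32.7) of CONV cells, 39.4% (95% interval 27.6 to 52.2) of CONV AsiDNA cells and 36.3% (95% interval 27.4 to 45.9) of FLASH cells, overlapped. AT1-like cells lay above ciliated-like cells (67.5, 78.4 and 70.4 ppm) in every library, and ciliated-like cells above those of the rest of the 14 that were not listed at 0. In most other classes CONV was highest, 9 of the 12 compared. Of these, AT2, IM, T and AM-like cells reached the minimum sum for a comparison only with CONV. Tef was above 0 in 11.7% (95% interval 7.85 to 16.5) of CONV cells, 1.09% (95% interval 0.226 to 3.17) of CONV AsiDNA cells and 1.47% (95% interval 0.481 to 3.41) of FLASH cells in AT2-like cells and in 7.73% (95% interval 5.41 to 10.6) of CONV cells, 0.924% (95% interval 0.252 to 2.35) of CONV AsiDNA cells and 0.613% (95% interval 0.0744 to 2.20) of FLASH cells in IM-like cells, with levels of 24.9, 2.26 and 3.07 ppm and 18.6, 2.26 and 1.54 ppm. CONV was also apart from both others in T-like cells, with shares of 3.86%, 0.411% and 1.19%, in B-like cells (3.45%, 1.50% and 0.347%) and in AM-like cells (4.96%, 1.57% and 1.26%). The makeup of AM-like cells differed between libraries. In them Gpnmb, a macrophage glycoprotein gene, was above 0 in 70.0%, 37.3% and 48.0% and Krt79 in 14.5%, 48.6% and 65.9%. In B-like cells Igkc, an immunoglobulin light chain gene, was above 0 in 56.8%, 94.2% and 94.2%. Ighd, a marker of the B gate, was near level there, at 77.6%, 80.2% and 79.2%. These genes do not establish a difference in the makeup of B-like cells. The part of these differences in the Tef result was not tested. In NK-like cells the level was 55.7, 21.0 and 21.2 ppm on 9, 14 and 13 cells with overlapping shares. Monocyte-like cells differed, at 5.19, 4.95 and 20.9 ppm, with FLASH highest and a log2 ratio of -1.05 for CONV AsiDNA over FLASH. Tef reached the minimum sum for a comparison there only with FLASH.

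Ciart (CHRONO), a repressor of the BMAL1 complex whose window holds 3 E-boxes, was highest in endothelial cells. EC-like cells had 16.3 ppm (CONV), 38.3 ppm (CONV AsiDNA) and 20.1 ppm (FLASH), above 0 in 5.69% (95% interval 3.56 to 8.57) of CONV cells, 11.6% (95% interval 8.79 to 14.9) of CONV AsiDNA cells and 6.88% (95% interval 4.78 to 9.52) of FLASH cells, and lay above each of the other classes compared in level. CONV AsiDNA was the highest library, with an interval apart from that of CONV and overlapping that of FLASH, and no pair passed 2-fold. General capillary cells carried most of it, above 0 in 10.2%, 23.3% and 12.9% of cells, against 2.78%, 6.54% and 1.92% in aerocytes. In CONV, the share in AT2-like cells was near that in EC-like cells, with AT2-like cells at 10.7, 3.02 and 1.84 ppm and shares of 5.19%, 1.46% and 0.885%. Ciart was the only one of the 10 members for which CONV was the highest library in no class compared, which for Ciart were EC and T-like cells.

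Arntl, the activator on which the loop turns, was highest by the library mean in fibroblast-like cells, at 40.7 ppm (CONV), 41.5 ppm (CONV AsiDNA) and 68.8 ppm (FLASH), ciliated-like cells, at 33.8, 43.5 and 43.9 ppm, and AT2-like cells, at 37.4, 32.4 and 17.2 ppm. The ranges of neighbours in this order overlapped. It was above 0 in every library of 10 classes and was listed at 0 throughout DC and neutrophil-like cells. CONV AsiDNA was the highest library in 5 of 10 classes compared, FLASH in 3 and CONV in 2. In AM-like cells Arntl was above 0 in 7.07% (95% interval 5.52 to 8.89) of CONV cells, 12.9% (95% interval 10.4 to 15.7) of CONV AsiDNA cells and 8.63% (95% interval 6.27 to 11.5) of FLASH cells, with CONV AsiDNA above CONV, beside the makeup of these cells given with Tef. In AT2-like cells FLASH was lowest, with 8.26% (95% interval 5.56 to 11.7) of cells against 17.3% (95% interval 12.7 to 22.8) in CONV. In monocyte-like cells Arntl was listed at 0 in the 55 cells of CONV and was above 0 in 20 of 319 and 13 of 424 cells of the others. It reached the minimum sum for a comparison there only with CONV AsiDNA.

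Npas2, which can take the place of CLOCK, was confined mainly to ciliated, fibroblast and AT2-like cells. The levels were 31.3 ppm (CONV), 20.4 ppm (CONV AsiDNA) and 26.5 ppm (FLASH) in ciliated-like cells, 9.80, 12.1 and 11.7 ppm in AT2-like cells and 7.41, 29.1 and 16.1 ppm in fibroblast-like cells. Fibroblast-like cells of CONV had 2 cells above 0, those of CONV AsiDNA 10 and those of FLASH 11, and the log2 ratio of CONV over CONV AsiDNA was -1.17 with overlapping shares. Npas2 reached the minimum sum for a comparison there only with CONV AsiDNA, and likewise only with FLASH. In ciliated-like cells CONV was the highest library.

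**Figure D3:**
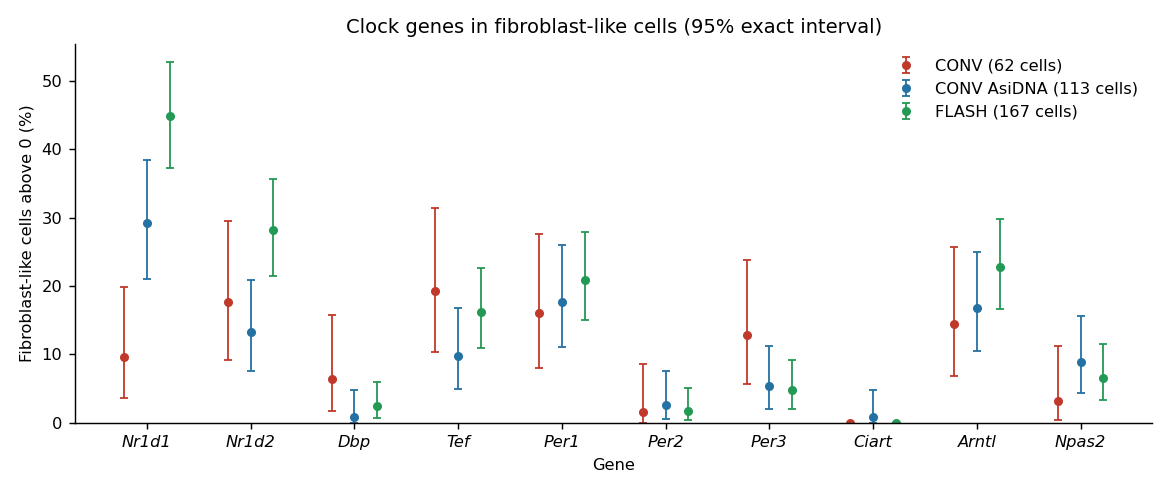
Share of fibroblast-like cells with each clock gene above 0, in percent, in CONV (62 cells), CONV AsiDNA (113 cells) and FLASH (167 cells), with exact 95% intervals over cells and none at a share of 0. Nr1d1 is the gene whose CONV interval lies below both others, and for the other genes above 0 in CONV the CONV interval overlaps both others.

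By phase, a combination of gene and class was compared where the summed value over the 3 libraries was at least 20, which held for 76 of 140, 62 of the Nr1d1 phase and 14 of the opposite phase. Counts and medians over those 76 are a description of the members with enough signal and not of all members. Of the 62, 10 reached the minimum only with the value of CONV, 4 only with that of CONV AsiDNA and 3 only with that of FLASH, some of them counted under more than 1 library. In the Nr1d1 phase, CONV was at least 2-fold above CONV AsiDNA in 11 combinations and below in 4, where 3.03% and 4.52% of all combinations of a gene and a class passed in those directions. Against FLASH, CONV was above in 11 and below in 5 (background 4.14% and 4.47%). In each comparison 4 of the 11 above, and 0 of those below, reached the minimum only with CONV. CONV AsiDNA was above FLASH in 1 and below in 3 (background 2.12% and 1.19%). The 1 above, Per3 in club-like cells, reached the minimum only with CONV AsiDNA, and 1 of the 3 below, Tef in monocyte-like cells, only with FLASH. These counts moved by over 1.5 times with other settings. With 1 ppm added, CONV was above in 19 and 23, and CONV AsiDNA was above FLASH in 8 and below in 5, so that the balance turned, and with a minimum sum of 50 CONV was above in 6 and 5. Of those past 2-fold in the main setting, Per3 in club-like cells, listed at 0 in FLASH, was the 1 combination with a 0 in a library. The median log2 ratios were 0.29, 0.45 and 0.04, beside -0.05, -0.01 and 0.03 over all genes compared.

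In the opposite phase, CONV was above neither other library by 2-fold in any combination and was below CONV AsiDNA in 2 (Arntl in monocyte-like and Npas2 in fibroblast-like cells) and below FLASH in 1 (Arntl in monocyte-like cells, listed at 0 in CONV). Both combinations reached the minimum sum only with CONV AsiDNA, the library in which they were highest. Of the 14 combinations of this phase, 2 reached it only with CONV, 4 only with CONV AsiDNA and 2 only with FLASH, some of them counted under more than 1 library. The median log2 ratios over its 14 combinations were -0.22, -0.05 and 0.26 for CONV over CONV AsiDNA, CONV over FLASH and CONV AsiDNA over FLASH. CONV was above CONV AsiDNA in 45 of 62 combinations of the Nr1d1 phase and in 5 of 14 of the opposite phase, and above FLASH in 45 of 62 and 7 of 14. Of the 62, 10 were compared only through their CONV value, which favours CONV being above, and the counts were not made without them. The median log2 ratios over all genes compared were -0.05 and -0.01 for these 2 comparisons. The 2 comparisons share the CONV library, so their agreement is not 2 results. Where the shares of cells also had to be apart, the members' counts for CONV over CONV AsiDNA were 7 above and 3 below (background 1.71% and 2.29%), for CONV over FLASH 8 and 2 (2.62% and 2.24%), and for CONV AsiDNA over FLASH 1 and 1 (1.22% and 0.583%).

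**Figure D4:**
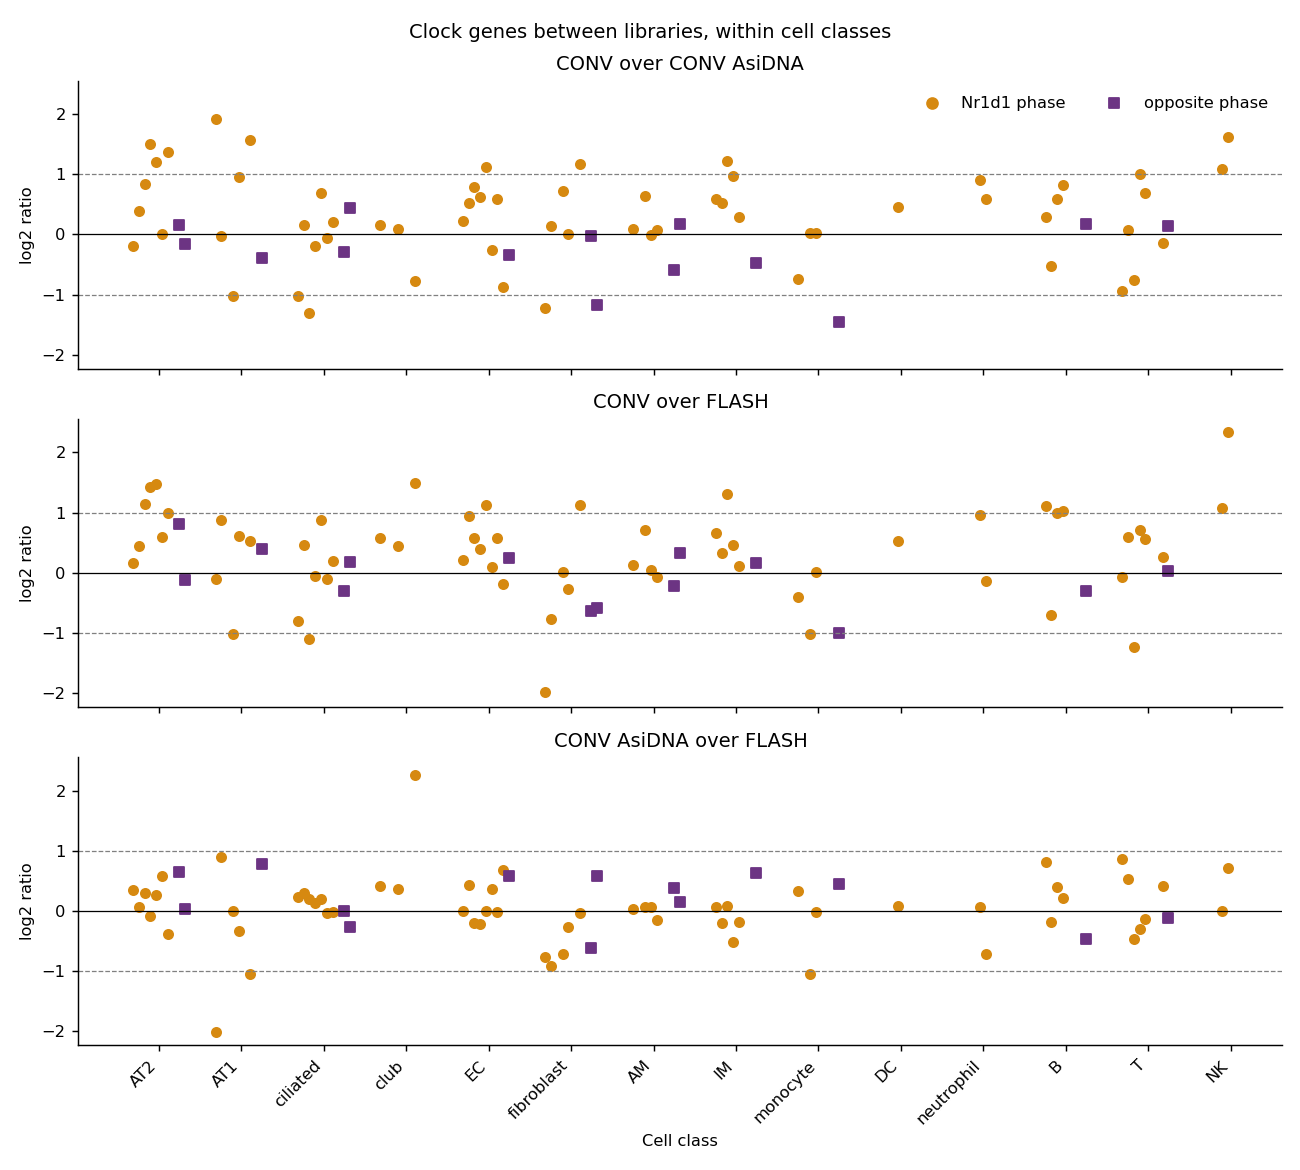
The log2 ratio between 2 libraries, after adding 10 ppm, for each clock gene compared in each cell class, with the 3 pairs of libraries from top to bottom. Circles are genes of the Nr1d1 phase and squares those of the opposite phase, dashed lines mark 2-fold, values against a library listed at 0 (Per3 in club-like cells of FLASH, Arntl in monocyte-like cells of CONV) are no folds, and the circles of AT2 and NK-like cells lie mostly above 0 in both pairs with CONV while those of ciliated and fibroblast-like cells lie on both sides.

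The classes did not move as one. In AT2-like cells all 7 genes of the Nr1d1 phase that were compared were above FLASH in CONV, with a median log2 ratio of 0.99 beside 0.12 over the 7719 genes compared there, and 6 of 7 were above CONV AsiDNA (median 0.84 beside 0.02). Dbp and Tef were among the 7 only through their CONV values. Without them the middle log2 ratio was 0.59 over FLASH (that of Per2) and 0.39 over CONV AsiDNA (that of Nr1d2). The median mitochondrial share of AT2-like cells was lowest in CONV as well, at 1.13%, 2.52% and 4.87%, as was that of EC-like cells, at 0.124%, 0.426% and 0.737%, and its part in these values was not tested. In EC-like cells 6 of 8 and 7 of 8 were higher in CONV (medians 0.55 and 0.48 beside -0.04 and -0.03 over the genes compared there). Dbp was among the 8 only through its CONV value, and Per2 only through that of CONV AsiDNA. Without Dbp the middle log2 ratio was 0.52 over CONV AsiDNA (that of Nr1d2) and 0.40 over FLASH (that of Tef). In IM-like cells all 5 were higher in CONV in both comparisons (medians 0.59 and 0.45 beside 0.05 and 0.07), Dbp and Tef again only through CONV. In ciliated-like cells 3 of 7 were higher and 4 lower in each comparison (medians -0.07 and -0.05 beside -0.01 and 0.04), and in fibroblast-like cells CONV was above CONV AsiDNA for 4 of 5 (median 0.14 beside -0.01), CONV above FLASH for 2 of 5 (median -0.27 beside -0.03) and CONV AsiDNA above FLASH for none. Per3 was among the 5 of fibroblast-like cells only through its CONV value, and likewise only through its FLASH value. The medians of these classes rest on 5 to 8 genes.

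Against both other libraries at once, CONV was at least 2-fold higher in 7 combinations (1.63% of all combinations of a gene and a class) and lower in 4 (2.74%). The 7 were Tef and Per1 in AT2, Per1 in EC, Per3 in fibroblast, Tef in IM, and Tef and Per1 in NK-like cells. Within AT2, EC, fibroblast, IM and NK-like cells, 2.0%, 2.53%, 2.18%, 1.2% and 1.41% of the genes compared were higher by this rule. Per3 in fibroblast and Tef in AT2 and IM-like cells reached the minimum sum only with CONV, the library in which they were high. The 4 were Tef in AT1, Dbp in ciliated, Nr1d1 in fibroblast and Arntl in monocyte-like cells. Within these classes, 4.63%, 0.312%, 2.94% and 6.87% of the genes compared were lower by this rule. Arntl in monocyte-like cells reached the minimum sum only with CONV AsiDNA, the library in which it was highest. CONV AsiDNA was lower than both others in 2, Nr1d1 and Per3 in AT1-like cells (0.456% over all classes, 3.46% within AT1-like cells), and higher in none (0.464%). FLASH was higher in 1, Tef in monocyte-like cells (0.441% over all classes, 0.956% within monocyte-like cells). It was lower in 1, Per3 in club-like cells (1.08% over all classes, 8.53% within club-like cells). Tef in monocyte-like cells reached the minimum sum only with FLASH and Per3 in club-like cells only with CONV AsiDNA, the libraries in which they were highest. Of the 11 combinations that set CONV apart, 10 held a gene of the Nr1d1 phase, which makes up 62 of the 76 compared.

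The rest of the clock was followed through 22 further genes on 4 lists, 12 of them further factors of the loop, 6 kinases or ubiquitin ligase parts that set the stability of PER and CRY, and 4 known outputs. Of the E-box activators and repressors, 8 of 50 combinations were 2-fold higher and 0 lower in CONV than in CONV AsiDNA (8 and 1 against FLASH), of the RORE and D-box factors 2 and 0 of 25 (2 and 1), of the kinases and ligase parts 1 and 2 of 58 (1 and 1), and of the outputs 3 and 2 of 31 (4 and 3). Over all combinations compared, 3.03% were higher and 4.52% lower in CONV than in CONV AsiDNA, and 4.14% and 4.47% than in FLASH. The gene behind most of the first count was Bhlhe40 (DEC1), an E-box repressor that also responds to hypoxia and cytokines. Bhlhe40 was 2-fold above both other libraries in CONV in 5 classes, at 359, 76.7 and 124 ppm in EC, 585, 282 and 281 ppm in NK, 67.2, 9.55 and 21.1 ppm in AT1, 63.3, 3.81 and 8.45 ppm in club and 48.5, 19.0 and 1.21 ppm in neutrophil-like cells. FLASH was 2-fold below both others for Bhlhe40 in IM-like cells, at 144, 127 and 53.0 ppm, and in neutrophil-like cells.

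Among the outputs, Tsc22d3 (GILZ), which is also a direct glucocorticoid target, took opposite orders in different classes. It was 144 ppm (CONV), 324 ppm (CONV AsiDNA) and 797 ppm (FLASH) in fibroblast-like cells and 151, 387 and 705 ppm in AT1-like cells, with CONV 2-fold below both others, and 96.2, 32.4 and 28.9 ppm in AT2-like cells, with CONV 2-fold above. The fibroblast order was that of Nr1d1 in the same cells. Tspan4, a tetraspanin, was 62.6, 21.3 and 14.9 ppm in AM-like cells, with CONV above both. Wee1, the kinase that delays entry into mitosis, was 19.2, 3.38 and 17.7 ppm in IM-like cells, with CONV AsiDNA below both.

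By their highest class, Clock, the usual partner of Arntl (81.5, 125 and 132 ppm), Hlf (111, 39.4 and 68.8 ppm) and Tspan4 (241, 120.4 and 124 ppm) led in fibroblast-like cells. Cry1 (39.5, 53.4 and 43.0 ppm), Btrc (60.9, 39.5 and 40.2 ppm) and Usp2 (228, 185 and 174 ppm) led in ciliated-like cells, and Cry2 (218, 210.2 and 295 ppm) in AT1-like cells. Bhlhe40 (818, 942 and 741 ppm) and Timeless (37.7, 43.0 and 45.7 ppm) led in DC-like cells. Bhlhe41 led in AM-like cells (365, 283 and 355 ppm), Rora in T-like cells (404, 260.3 and 231 ppm) and Nfil3 in monocyte-like cells (254, 243 and 217 ppm). Hlf, the third D-box activator beside Dbp and Tef, was highest in CONV in all 3 classes compared. DC-like cells, in which most members were listed at 0, thus still had Bhlhe40 and Timeless of the further genes. Whether the loop runs in DC-like cells was not tested.

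Other gene groups are given beside the Per1 result. Cirbp and Rbm3, RNA-binding proteins whose transcripts are known to increase in cooled cells and which also cycle with body temperature, were higher in CONV than in each other library in 28 of 28 combinations, with 22 and 19 past 2-fold and medians of 1.32 and 1.10, where 3.03% and 4.14% of all combinations passed and the medians over all genes were -0.05 and -0.01. In EC-like cells Cirbp was 159, 23.0 and 15.6 ppm and Rbm3 268, 189 and 232 ppm. In fibroblast-like cells, where Per1 did not have that order, Cirbp was 115, 20.8 and 11.7 ppm and Rbm3 215, 62.3 and 139 ppm, again with CONV highest. For CONV AsiDNA over FLASH, 10 of 28 combinations were above 0, with a median of -0.08.

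**Figure D5:**
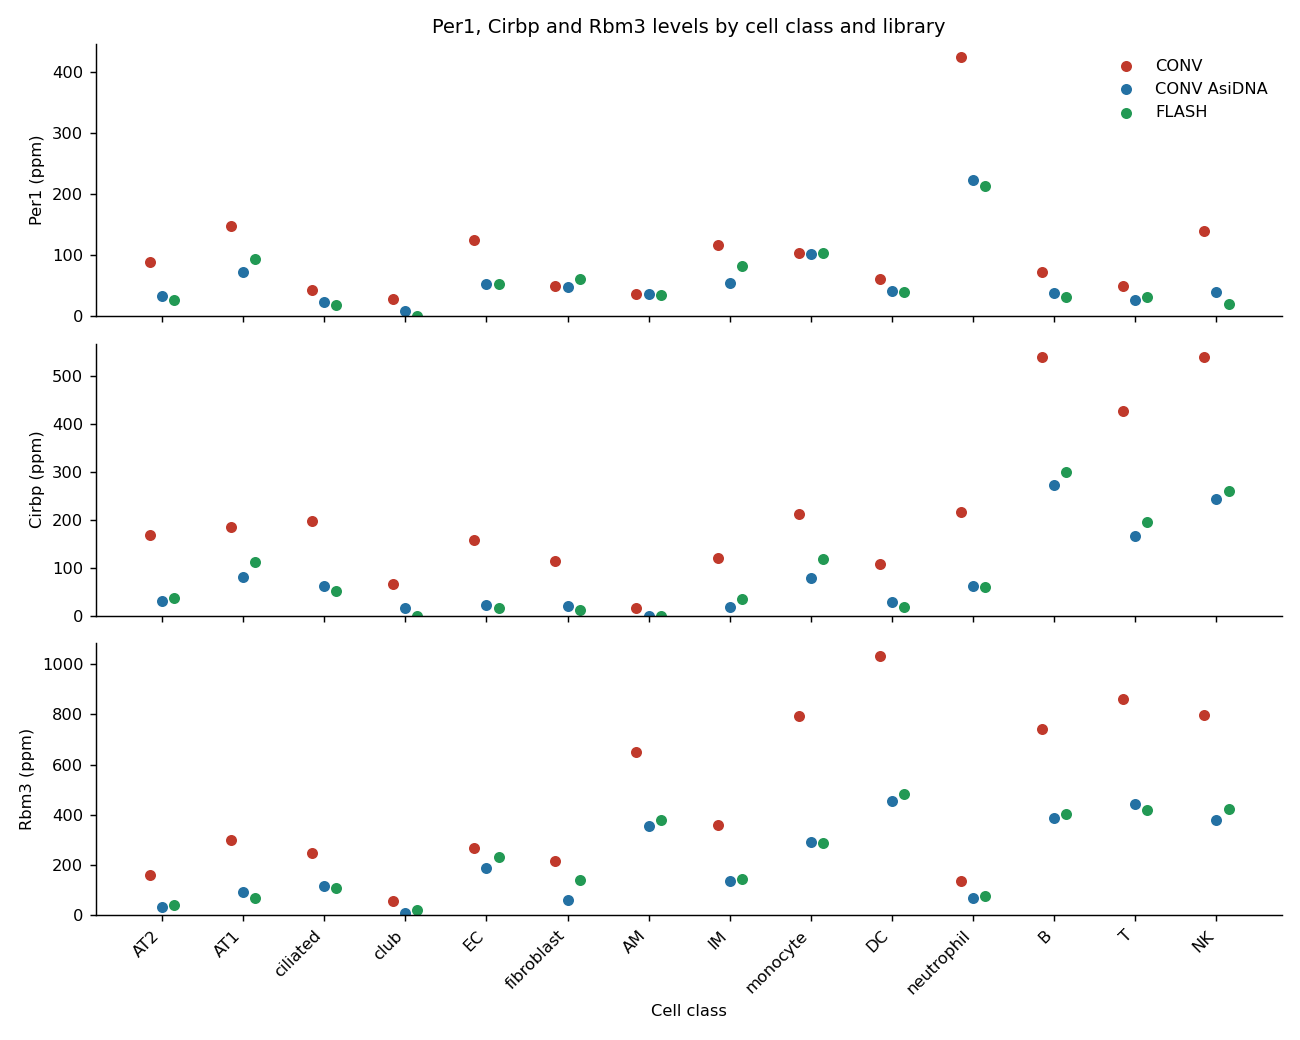
Level of Per1, Cirbp and Rbm3 in ppm (axes from top to bottom, each from 0) in each cell class, with 1 point per library. CONV is the highest point for Cirbp and Rbm3 in all 14 classes, and for Per1 in 12 of them, since Per1 in club-like cells is drawn although it was below the minimum for a comparison.

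A list of 12 glucocorticoid-responsive genes, among them Fkbp5 and Klf9, was 2-fold higher in CONV than in CONV AsiDNA in 35 of 108 combinations and lower in 7 (33 and 7 against FLASH), with medians of 0.72 and 0.57, beside the all-gene shares of 3.03% and 4.52% (4.14% and 4.47%) and medians of -0.05 and -0.01. For CONV AsiDNA over FLASH the counts were 6 and 5, with a median of -0.03 (all genes 2.12%, 1.19% and 0.03). The list includes Per1 itself and Tsc22d3, so it is not independent of the Per1 result. Per1 gave 13 of the 108 combinations, and 3 of the 35 higher in CONV than in CONV AsiDNA. Against FLASH it gave 4 of the 33. Fkbp5, a chaperone of the glucocorticoid receptor, was 535, 75.1 and 183 ppm in monocyte-like and 163, 18.8 and 33.0 ppm in B-like cells. Klf9, a transcription factor, was 733, 406 and 591 ppm in EC-like cells, with CONV highest, but 978, 1059 and 1581 ppm in fibroblast-like cells, with CONV lowest, as for Nr1d1 there. A list of 18 immediate early genes, which respond to tissue dissociation as well, was 2-fold higher in CONV in 36 and lower in 24 of 220 combinations against CONV AsiDNA (44 and 18 against FLASH), with medians of 0.11 and 0.19 beside the same all-gene values. It went both ways, with 97 of the 220 combinations lower in CONV than in CONV AsiDNA and 87 lower than in FLASH. The median mitochondrial share per cell was 0.628%, 0.180% and 1.35% in CONV, CONV AsiDNA and FLASH. The part of these groups, and of the hour of collection, in the clock gene values was not tested.

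Over the 14 classes, with the levels of the 3 libraries averaged, the members' likeness in distribution did not follow the phases. Pearson's r of the log2 levels ranged from -0.42 to 0.83 with a median of 0.31 over the 28 pairs within the Nr1d1 phase, and from -0.37 to 0.90 with a median of 0.47 over the 16 pairs across phases. The closest pair was Nr1d2 and Arntl (r = 0.90), repressor and target, followed by Tef and Per3 and by Nr1d1 and Per3 (both 0.83). Per1 went against Nr1d1 (-0.42) and Dbp (-0.42). These values are descriptions over 14 classes that share libraries and depth.

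The genes most alike to a member were sought among 12265 genes with at least 20 ppm in a class. For Nr1d1 they were Ppl, Slc4a4 and Spry1 (r = 0.93 each), for Dbp Lrrn3, Oxld1 (0.93 each) and Nthl1 (0.92), for Per1 Ndel1, Ccnl1 and Tnrc18 (0.89 each), which also peaked in neutrophil-like cells, and for Arntl Fam210a (0.93), Uqcc1 (0.92) and Terf2ip (0.91).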

How the data were processed

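Lungs of 3 mice, 1 per library, were profiled with droplet single-cell RNA sequencing, 10x 3' V3 or V3 NextGEM chemistry per the labels. The submitters' processing notes name Cell Ranger 6.0.0 and the build mm10, and the study's methods name R and Seurat. The authors deposited, per library, values on a natural log scale, each equal to ln(1 + a whole number). Converted back, every value lay within 1e-06 of a whole number, with a narrow range of totals per cell (1432 to 8462 over the libraries), by an adjustment not given in the sources used here. No count model was used, although the analysis had been planned for raw counts, and no difference was tested with 1 mouse per condition. A further 4 tables were left out, since their 12 sample columns and gene identifiers match none of the mouse libraries.

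Cells with at least 200 genes and at most 20% mitochondrial share were kept, and a cell entered a class where at least 4 markers of exactly 1 class were above 0, a minimum set after the values were seen. Doublets were treated by leaving out the 246, 336 and 255 cells of more than 1 class, and by an alternative without the highest 6% of Scrublet scores. Shares carry exact Clopper-Pearson 95% intervals. Levels were compared as log2 ratios after adding 10 ppm (a level scaled to 1000000), where the summed value was at least 20, and called at 2-fold. All 10 members were named, and of the other clock genes those past 2-fold against both other libraries or, by gene, their highest class, and the 3 genes most alike to Nr1d1, Dbp, Per1 and Arntl. Some genes of the lists are not reported here by name. The members and lists were chosen with earlier results of these data known. The fold rule and the intervals were tested on simulated data. Versions were Python 3.11.15, scanpy 1.11.5, leidenalg 0.10.2, pandas 2.3.3, scipy 1.17.1 and numpy 2.4.6. Gene positions came from GENCODE vM21 (GRCm38, the build that mm10 names).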

Additional observations from a re-analysis of the deposited data

Results flagged for a closer look

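Dbp differed in direction between cell classes in the comparison of CONV with FLASH. Its log2 ratio was 1.14 in AT2-like cells, from 13.4 and 0.614 ppm (15 of 231 and 1 of 339 cells above 0), and -1.23 in T-like cells, from 1.13 and 16.1 ppm (5 of 1374 and 58 of 1174 cells), a difference of 2.37. Dbp in AT2-like cells had a summed value of 20 over the 3 libraries, 15 of it in CONV, which is the minimum for a comparison and was reached through CONV, and it was not compared with a minimum of 50. With 1 library per condition the difference was not tested.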

How the results depend on the processing

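Of 13 other settings, 12 gave counts of combinations past 2-fold by phase, 144 in all, of which 120 stayed within 1.5 times the main count. Adding 1 instead of 10 ppm gave, in the Nr1d1 phase, 19 above and 10 below for CONV over CONV AsiDNA (11 and 4 in the main setting), 23 above for CONV over FLASH (11), and 8 above and 5 below for CONV AsiDNA over FLASH (1 and 3), where the balance of the directions turned, and in the opposite phase 2 above and 2 below for CONV over FLASH (0 and 1) and 2 above for CONV AsiDNA over FLASH (0). A minimum sum of 50, which compares fewer combinations, gave 6 and 5 above for CONV over CONV AsiDNA and over FLASH in the Nr1d1 phase, 0 above and 1 below for CONV AsiDNA over FLASH, and 0 below in both CONV comparisons of the opposite phase. No minimum gave 3 (Nr1d1 phase) and 1 (opposite phase) above for CONV AsiDNA over FLASH. In the Nr1d1 phase, clusters in place of the gate gave 2 and a gate of 5 markers 0 above for CONV AsiDNA over FLASH, and the gate of 5 markers and leaving out the highest Scrublet scores each gave 3 below for CONV over FLASH. A mitochondrial limit of 10% gave 2 below for CONV over CONV AsiDNA and 0 above for CONV AsiDNA over FLASH. In the opposite phase, clusters and the Scrublet setting each gave 1 below for CONV over CONV AsiDNA. The cause was not tested.

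Recomputed for the combinations past 2-fold, 404 ratios stayed past it and 27 dropped below, with the same sign. Scaling by the median gene ratio, whose log2 shift ran from -0.29 to 0.21 and passed 0.1 in size in 11 of 42 class and pair comparisons, dropped 1 of them. The 404 include 38 ratios with 1 ppm added, 38 with no minimum sum and 20 with a minimum of 50, which could not have dropped. Adding less only enlarges a ratio, and a minimum sum leaves it unchanged. Thinning each cell to 1000 lowered most shares, and all 22 ratios past 2-fold with shares apart kept their order after it, with intervals still apart in 10 of them. Nr1d1 in fibroblast-like cells was not among the 10, nor were Per1, Per3, Dbp and Tef in AT2, Nr1d1 in ciliated, Per3 in club, Tef in monocyte and, against CONV AsiDNA, Per1 in NK-like cells. Depth limits the members at a few cells above 0, such as Npas2, Per3 and Ciart outside their main classes. No paired analysis was possible because each condition had 1 mouse.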

Other observations

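Classes with fewer than 50 cells in a library were left out of the comparisons and hold some of the highest clock gene levels. Basophil and mast-like cells had Per1 at 391, 112 and 64.0 ppm in CONV, CONV AsiDNA and FLASH, above 0 in 70 of 109, 23 of 73 and 4 of 24 cells, while Nr1d1 was listed at 0 in all 3. SMC and pericyte-like cells, the mural cells of vessels and airways, had Per1 at 196, 46.6 and 7.99 ppm and Tef at 98.1, 11.7 and 24.0 ppm (37, 43 and 31 cells), with CONV highest for both, and Nr1d1 at 112, 58.3 and 112 ppm. Mesothelial-like cells had Nr1d1 at 128, 234 and 169 ppm, above 0 in 2 of 4, 14 of 29 and 9 of 20 cells. ILC2-like cells had Per1 at 73.9, 84.2 and 78.5 ppm on 72, 62 and 34 cells, without CONV highest.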
